A study of Mus musculus with 15 samples.

Results

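The messenger RNAs of 44 genes that encode RNA polymerase I factors and ribosome assembly factors were followed in mouse embryonic stem (ES) cells after an antisense oligonucleotide against LINE1 or an siRNA against Ncl or Dux. The members were a list of 45 gene symbols, grouped by the known role of each product, and those with a row in the gene count table were kept: 44 of 23284 genes in all. They comprise 11 polymerase I factors, 6 proteins of small nucleolar ribonucleoprotein particles (snoRNPs), 16 small subunit assembly factors and 11 of the 12 listed large subunit factors. Each member was placed in a single role, though Rrp12, put with the small subunit factors, also acts on large subunit precursors. The counts of Noc2l were not analysed here. All 44 passed the filter on low counts, with 14696 genes passing in all.

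The cells were E14Tg2A, an established mouse ES cell line grown with LIF, and RNA was sequenced from 15 libraries in 5 groups of 3. All of the cells were nucleofected with 5 nmol of an antisense oligonucleotide (ASO) and, 7 h later, transfected by lipofection with 100 pmol of siRNA per well; unsorted cells were collected on day 2. RC control cells received the control ASO called RC with siControl, RC siDux cells RC with an siRNA against Dux, and RC siNcl cells RC with an siRNA against Ncl. LINE1 control cells received an ASO against LINE1, a family of mobile elements, with siControl, and LINE1 siDux cells the LINE1 ASO with siDux. Nothing in the labels ties the replicates to separate cultures, and the p-values therefore cover the spread of these libraries alone, which may be technical. No group lacked the ASO or the siRNA step.

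RNA polymerase I transcribes the ribosomal DNA in the nucleolus. Ubtf and the SL1 complex, which holds the Taf1 proteins, mark and open the promoter, and Rrn3 brings the polymerase to it. The transcript is modified under the guidance of snoRNPs, folded and cleaved in the small subunit processome, and separated into precursors of the small and large subunits, each with its own assembly factors. Nucleolin, the product of Ncl, is an abundant nucleolar protein that binds ribosomal RNA precursors. ES cells divide fast and make many ribosomes.

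Promoters of the members were read from RefSeq on GRCm38.p6, from 250 bases before to 50 bases after each annotated start; 42 of the 45 listed members matched, with 52 windows. The counts were made on another build, so these positions describe the reference and not the counted intervals. Shown are Polr1c and Ubtf, the 2 polymerase I factors that fell most after siNcl, and Rrn3 and Utp20, which rose. Capitals mark the E-box CACGTG, a sequence bound by Myc proteins among others, and the ETS core CCGGAAG, searched on both strands, so that its reverse appears as CTTCCGG; no end of one can overlap the other.
Polr1c, chr17:46247996-46248295, minus strand: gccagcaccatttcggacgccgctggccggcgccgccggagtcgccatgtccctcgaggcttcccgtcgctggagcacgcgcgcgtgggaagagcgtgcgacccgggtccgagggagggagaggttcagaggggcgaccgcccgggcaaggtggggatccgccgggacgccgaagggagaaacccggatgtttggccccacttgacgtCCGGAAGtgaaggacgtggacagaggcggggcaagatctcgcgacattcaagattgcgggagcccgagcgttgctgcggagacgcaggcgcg
Ubtf, chr11:102319543-102319842, minus strand: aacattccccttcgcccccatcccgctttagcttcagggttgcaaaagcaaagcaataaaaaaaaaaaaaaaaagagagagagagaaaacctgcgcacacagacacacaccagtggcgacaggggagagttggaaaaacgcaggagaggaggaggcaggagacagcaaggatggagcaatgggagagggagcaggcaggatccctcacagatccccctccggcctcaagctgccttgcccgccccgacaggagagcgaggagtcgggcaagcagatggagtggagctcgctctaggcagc
Rrn3, chr16:13780449-13780748, plus strand: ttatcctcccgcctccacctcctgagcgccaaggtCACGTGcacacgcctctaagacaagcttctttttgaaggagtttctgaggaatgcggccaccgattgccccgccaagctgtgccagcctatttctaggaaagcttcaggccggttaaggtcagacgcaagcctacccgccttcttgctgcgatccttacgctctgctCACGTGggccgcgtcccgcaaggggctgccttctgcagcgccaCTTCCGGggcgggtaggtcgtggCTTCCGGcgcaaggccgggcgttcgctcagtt
Utp20, chr10:88826765-88827064, minus strand: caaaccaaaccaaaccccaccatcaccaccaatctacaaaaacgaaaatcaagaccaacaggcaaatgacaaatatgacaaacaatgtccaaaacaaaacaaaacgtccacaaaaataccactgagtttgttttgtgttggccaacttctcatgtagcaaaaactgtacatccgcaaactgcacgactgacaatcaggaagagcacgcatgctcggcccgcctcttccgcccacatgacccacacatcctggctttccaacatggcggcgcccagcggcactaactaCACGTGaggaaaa
The E-box was found in 7 of the 52 member windows (13.5%), against 9.72% of the 13234 windows of tested genes and 7.15% of all 32851 windows. The ETS core was found in 19 of the 52 (36.5%), against 15.5% of the windows of tested genes and 8.86% of all. By role the ETS core was in 38.9% of the polymerase I windows, 33.3% of the snoRNP, 26.7% of the small subunit and 46.2% of the large subunit windows. The large subunit windows include 2 of Noc2l, whose counts were not analysed. These overlap and hold the same ETS core, at -2 and 3 bases from their starts, which is thus counted in both. The 2 windows of Taf1a also overlap and share ETS cores. Of the printed windows, that of Rrn3 held 2 E-boxes and 2 ETS cores, that of Utp20 1 E-box, that of Polr1c 1 ETS core, and that of Ubtf neither; several members have more than 1 window, and a match is a description and not a bound site.

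Gene counts came to between 9.55 M and 27.6 M per library, and the 44 members took 0.779% to 0.902% of them. The count of Ncl went with the siNcl label. Ncl was at 644, 619 and 516 CPM (counts scaled to library size with TMM factors) in the RC siNcl libraries, against 4535, 6203 and 4651 in RC control (log2 change -3.11 ± 0.13 (SE), adjusted p = 8.81e-10; 8.65-fold lower). It was also lower in LINE1 control (log2 change -0.46 ± 0.12 (SE), adjusted p = 0.0208). Dux was near the detection floor in RC control and RC siDux alike, at most 0.41 CPM, so its row does not check the siDux label in the RC arm. In the LINE1 arm it was at 0.64, 0.46 and 0.51 CPM with siDux and 1.28, 0.82 and 1.38 CPM with siControl, without overlap but not called (log2 change -1.07 ± 0.41 (SE), adjusted p = 0.298). Dux rose in LINE1 control (log2 change 2.36 ± 0.57 (SE), adjusted p = 0.0128) and in RC siNcl (log2 change 2.67 ± 0.58 (SE), adjusted p = 0.00225), each against RC control. RC control replicate 2 stood apart, with a TMM factor of 0.874 (others 0.965 to 1.07) and 6.24% of its counts in its top 10 genes (others at most 5.35%). For the members, counts without this library are given with the comparisons of the LINE1 ASO and of siDux with RC control. With siNcl they are given for the small and large subunit factors. For the markers and the other listed genes they are not given. The ES cell identity markers Pou5f1, Sox2, Nanog and others summed to 4550 to 5010 CPM in LINE1 control and 5330 to 9340 CPM in RC control. Of these, Dppa5a alone was at 3313 CPM in RC control replicate 2, against 1227 and 906 CPM in replicates 1 and 3. By the test 6 of 10 were lower, against 9.69% of all genes, and with siNcl 4 of 10, against 15.6%. Nanog was at 23.8, 14.0 and 21.6 CPM in RC control and 14.7, 18.9 and 21.1 CPM in LINE1 control, with an overlap. The trophoblast marker Tpbpa was at 0 in every library, the endoderm marker Ttr in every library outside RC control, and the fibroblast marker Lum in every library of RC control and RC siNcl. Other markers of these lists and of a neural list were higher (edgeR). With siNcl these were 3 of 8 endoderm, 2 of 9 neural, 2 of 7 fibroblast and 1 of 8 trophoblast markers tested, against 16.7% of all genes. With the LINE1 ASO they were 2 of 7 fibroblast, 1 of 8 endoderm, 1 of 9 neural and 0 of 8 trophoblast markers, against 9.35%. In either comparison 0 were lower. The endoderm list summed to 14.8 to 23.2 CPM in RC control, 23.5 to 31.3 CPM in LINE1 control and 27.7 to 32.2 CPM in RC siNcl. The neural list summed to 208 to 266 CPM, 230.0 to 302 CPM and 306 to 384 CPM in the same groups, the fibroblast list to 35.8 to 65.8, 43.5 to 48.0 and 56.9 to 66.4 CPM, and the trophoblast list to 207 to 280.0, 230.0 to 327 and 305 to 342 CPM. The 10 genes of the 2-cell-like list, whose cells appear at low frequency in ES cultures, summed to 17.0 to 22.4 CPM in RC control, 116 to 144 CPM in LINE1 control and 74.2 to 134 CPM in RC siNcl. They summed to 3.21 to 5.31 CPM in RC siDux and 33.9 to 45.3 CPM in LINE1 siDux. By edgeR 6 of the 10 were lower in RC siDux against RC control (all genes 4.5%). In LINE1 siDux against LINE1 control 8 of the 10 were (all genes 0.306%). The part of a shift in cell identity in any result here was not tested, and with bulk RNA fewer cells of a type and less RNA per cell cannot be told apart.

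**Figure D1:**
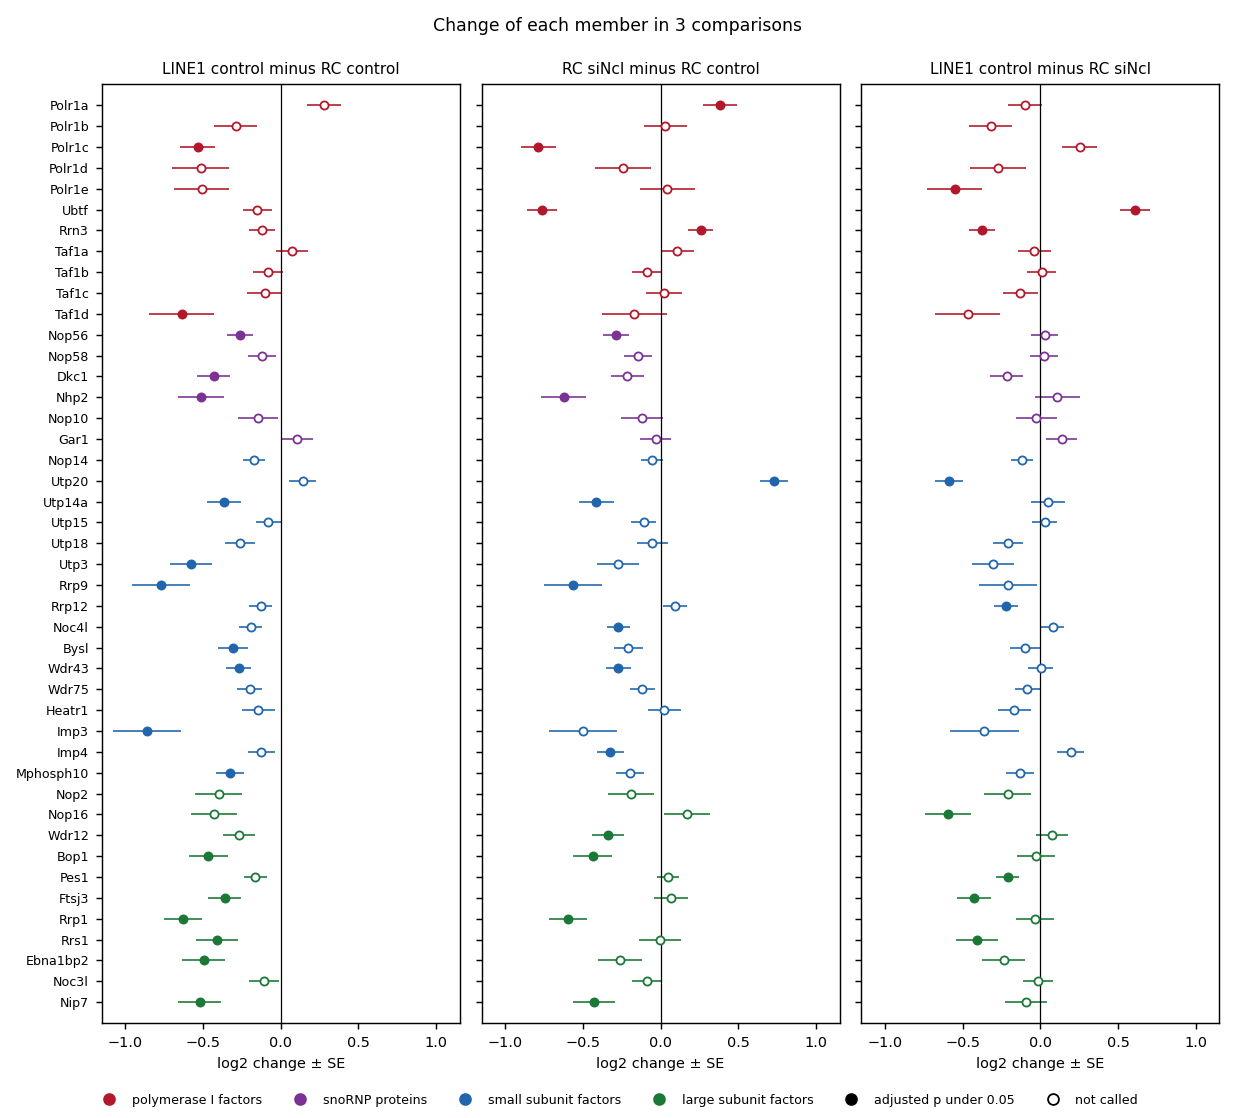
Log2 change ± SE of each of the 44 members in 3 comparisons (LINE1 control minus RC control, RC siNcl minus RC control, and LINE1 control minus RC siNcl), with colour for role and filled points for an adjusted p under 0.05. In the first panel 40 of the 44 points lie below 0, while in the second Utp20, Polr1a and Rrn3 are filled and above 0.

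In the fit on all libraries, part of the messages of ribosome assembly were lower relative to other genes with the LINE1 ASO. None was called in a fit on the compared groups alone or under ERCC scaling. In LINE1 control against RC control 18 of the 44 members fell and none rose (edgeR's quasi-likelihood test, p adjusted by Benjamini-Hochberg over all tested genes, threshold 0.05), against 9.69% of the 14696 genes that fell and 9.35% that rose. An unadjusted p under 0.05 was seen in 29 of the 44 members and in 5078 of the 14696 genes. The median change of the members was -0.27 on the log2 scale, that of all genes 0.02, and 40 of 44 were below 0. The large subunit factors had the lowest median and the polymerase I factors the highest, though with a length offset, described with the lengths, the snoRNP proteins had the highest.

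Among the polymerase I factors, 2 of 11 fell. Polr1c, a subunit shared by polymerases I and III, was at 150.2, 188 and 141 CPM in RC control and 96.0, 113 and 122 CPM in LINE1 control. All LINE1 control libraries were below all RC control libraries (log2 change -0.53 ± 0.11 (SE), adjusted p = 0.00601, 1.45-fold lower). Taf1d, a subunit of SL1, was at 154, 234 and 135 CPM and 97.4, 94.7 and 144 CPM in the same groups; replicate 3 of LINE1 control lay among the RC control libraries (log2 change -0.63 ± 0.21 (SE), adjusted p = 0.0439). The catalytic subunits Polr1a and Polr1b were not called, with log2 changes of 0.28 ± 0.11 and -0.29 ± 0.14 (SE). Ubtf was at 315, 340.5 and 268 CPM in RC control and 271, 275 and 286 CPM in LINE1 control, and the groups overlapped. Polr1d, Polr1e, Rrn3, Taf1a, Taf1b and Taf1c were not called either, and the changes of the role ran from -0.63 to 0.28. The number that fell was 1 without RC control replicate 2, without LINE1 control replicate 1 or without LINE1 control replicate 2, where Taf1d lost its call, 1 with the 5 CPM filter, and 4 without LINE1 control replicate 3, with the replicate block, with no filter and with DESeq2. The role's median was 0.04 under ERCC scaling.

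Of the snoRNP proteins, 3 of 6 fell. Dkc1, the pseudouridine synthase dyskerin, was at 407, 435 and 394 CPM in RC control and 264, 291 and 364 CPM in LINE1 control (log2 change -0.43 ± 0.10 (SE), adjusted p = 0.0138). Nhp2, which binds the same RNA particles, was at 316, 462 and 292 CPM and 224, 249.5 and 276 CPM (log2 change -0.51 ± 0.15 (SE), adjusted p = 0.0256), and Nop56, a core protein of the methylation particles, at 583, 673 and 553 CPM and 503, 486 and 521 CPM (log2 change -0.26 ± 0.08 (SE), adjusted p = 0.0422). In these 3 genes no LINE1 control library reached an RC control one. Such genes were named for their small p-values, and the share of all genes without an overlap was not computed. Gar1 was not called, at 0.11 ± 0.10 (SE) on the log2 scale, nor were Nop58 and Nop10. Without RC control replicate 2 only Dkc1 of these kept its call, and without LINE1 control replicate 1 or 2 none of the 6 was called by edgeR. With the length offset 1 fell.

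Of the small subunit factors, 7 of 16 fell: Utp3, Rrp9, Imp3, Utp14a, Bysl, Wdr43 and Mphosph10. Imp3, part of the complex that anchors U3 snoRNA to the transcript, was at 48.6, 78.6 and 43.1 CPM in RC control and 22.9, 31.8 and 39.0 CPM in LINE1 control (log2 change -0.86 ± 0.22 (SE), adjusted p = 0.0166, 1.81-fold lower). Rrp9, a protein of the U3 particle, was at 182, 258 and 159 CPM and 89.8, 111 and 150.4 CPM (log2 change -0.77 ± 0.19 (SE), adjusted p = 0.0133), and Utp3, a processome protein, at 118, 156 and 116 CPM and 77.4, 79.5 and 104 CPM (log2 change -0.58 ± 0.14 (SE), adjusted p = 0.0115). None of these 3 overlapped between the groups. Utp20, a large processome protein, was not called, at 0.14 ± 0.09 (SE), nor were Nop14, Utp15, Utp18, Rrp12, Noc4l, Wdr75, Heatr1 and Imp4. The changes of the role ran from -0.86 to 0.14. The number that fell was 3 without RC control replicate 2, where Imp3, Rrp9, Utp14a, Bysl and Mphosph10 lost their calls, and 0 without LINE1 control replicate 1 or 2.

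Of the large subunit factors, 6 of 11 fell: Rrp1, Nip7, Bop1, Ebna1bp2, Ftsj3 and Rrs1. Rrp1, a factor of early large subunit precursors, was at 254, 314 and 242 CPM in RC control and 156, 166 and 203 CPM in LINE1 control (log2 change -0.63 ± 0.12 (SE), adjusted p = 0.00435, 1.54-fold lower). Nip7, a factor of large subunit precursors, was at 142, 192 and 130.2 CPM and 92.4, 103 and 127 CPM (log2 change -0.52 ± 0.14 (SE), adjusted p = 0.0183), and Bop1, the partner of Pes1 and Wdr12 in the PeBoW complex, at 209, 204 and 184 CPM and 116, 144 and 173 CPM (log2 change -0.46 ± 0.12 (SE), adjusted p = 0.0194). In all 3 the LINE1 control libraries stayed below the RC control libraries. Pes1 and Wdr12, the other two PeBoW subunits, were not called, at -0.16 ± 0.07 and -0.27 ± 0.10 (SE), nor were Nop2, Nop16 and Noc3l. The changes of the role ran from -0.63 to -0.11. The number that fell was 3 without RC control replicate 2, where Nip7, Ebna1bp2 and Rrs1 lost their calls, and 1 without LINE1 control replicate 1 or 2.

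The count of members that fell was not stable to the libraries and the estimate of spread. It was 0 in a fit on the LINE1 control and RC control libraries alone, 0 when libraries were scaled to the ERCC spike-ins, 8 without RC control replicate 2, 2 without LINE1 control replicate 1 and 2 without LINE1 control replicate 2, and 24 without LINE1 control replicate 3. The fit without RC control replicate 1 gave 1 member higher, as did that without RC control replicate 3. Polr1c and Rrp1 kept their call in each leave-out of 1 library, and the direction of the members' median did not change in any setting run.

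**Figure D2:**
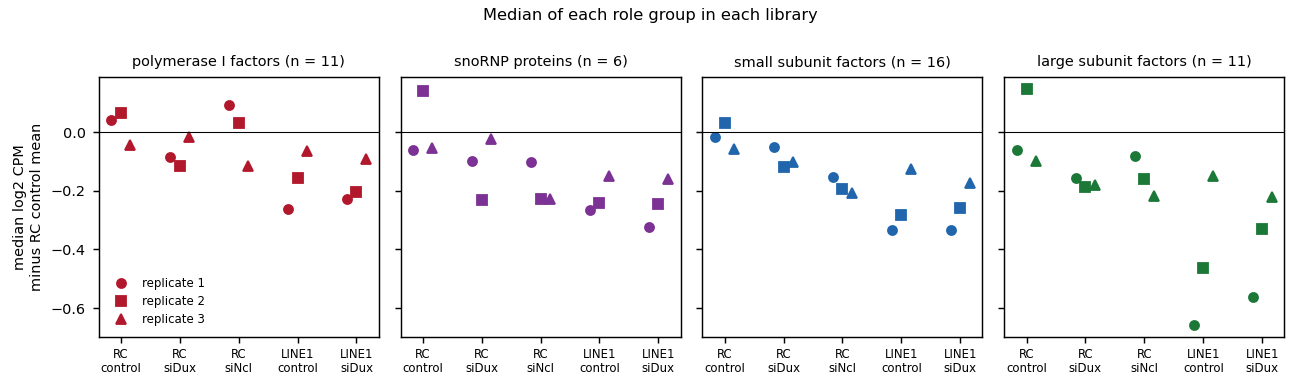
Median, over the members of each role, of log2 CPM in a library minus the mean of log2 CPM over RC control, one point per library with shape for replicate number. For the large subunit factors the LINE1 control points lie at -0.66, -0.46 and -0.15, and for the polymerase I factors at -0.26, -0.16 and -0.07.

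The roles were compared by their medians over members, as a description. In LINE1 control minus RC control the median change was -0.15 for the polymerase I factors, -0.20 for the snoRNP proteins, -0.23 for the small subunit factors and -0.41 for the large subunit factors. In RC siNcl minus RC control the medians were 0.02, -0.18, -0.20 and -0.19 in the same order. The LINE1 control libraries differed among themselves: over all 44 members replicates 1, 2 and 3 were at a median of -0.35, -0.32 and -0.12 relative to the RC control mean, so replicate 3 lay nearest to RC control, and the RC control libraries at -0.03, 0.10 and -0.07. Members of a role come from the same libraries, and no test of the differences between roles was made.

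With siNcl some members fell and a few rose. In RC siNcl against RC control 13 of 44 members fell and 3 rose, against 15.6% of all genes that fell and 16.7% that rose, and the members' median change was -0.16 against -0.01 for all genes. The share of members that fell, 13 of 44, is above the 15.6% of all genes, and the share that rose is below the 16.7%. The 3 that rose were Polr1a, Rrn3 and Utp20, and the 2 polymerase I factors that fell, Polr1c and Ubtf, had the 2 smallest p-values among the members that fell. Of the 11 polymerase I factors 2 fell and 2 rose, near the shares of all genes; both that rose lost their calls in a fit on the compared groups only.

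Ubtf, the factor that keeps ribosomal DNA open, was at 202, 181 and 162 CPM in RC siNcl and 315, 340.5 and 268 CPM in RC control (log2 change -0.76 ± 0.10 (SE), adjusted p = 2.05e-05, 1.69-fold lower). Polr1c was at 96.0, 91.9 and 89.9 CPM with siNcl (log2 change -0.79 ± 0.11 (SE), adjusted p = 6.58e-05, 1.72-fold lower), below every RC control library. The groups did not overlap for either gene. Polr1a, the largest subunit of the polymerase, was at 286, 281 and 282 CPM in RC siNcl and 244, 166 and 242 CPM in RC control (log2 change 0.38 ± 0.11 (SE), adjusted p = 0.0144); the lowest RC control value was replicate 2. Rrn3, the factor that recruits the polymerase, was at 434, 424 and 408 CPM with siNcl and 367, 325 and 367 CPM in RC control (log2 change 0.26 ± 0.08 (SE), adjusted p = 0.0246), and it lost its call without RC control replicate 2, RC siNcl replicate 1 or RC siNcl replicate 2.

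Utp20 rose most of the members. It was at 547, 517 and 574 CPM in RC siNcl and 364, 286 and 339 CPM in RC control (log2 change 0.73 ± 0.09 (SE), adjusted p = 1.24e-05, 1.66-fold higher), with no overlap. The small subunit factors that fell were Utp14a, Imp4, Noc4l, Wdr43 and Rrp9. Utp14a, a processome protein, was at 130.4, 129 and 129 CPM with siNcl and 160.0, 171 and 185 CPM in RC control (log2 change -0.41 ± 0.11 (SE), adjusted p = 0.01), and Imp4, a partner of Imp3 and Mphosph10, at 114, 96.7 and 93.6 CPM and 130.1, 129 and 121 CPM (log2 change -0.32 ± 0.09 (SE), adjusted p = 0.00996). Noc4l was at 90.7, 93.5 and 85.2 CPM and 116, 104 and 105 CPM (log2 change -0.27 ± 0.08 (SE), adjusted p = 0.0112). The libraries of both groups stayed apart for all 3.

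**Figure D3:**
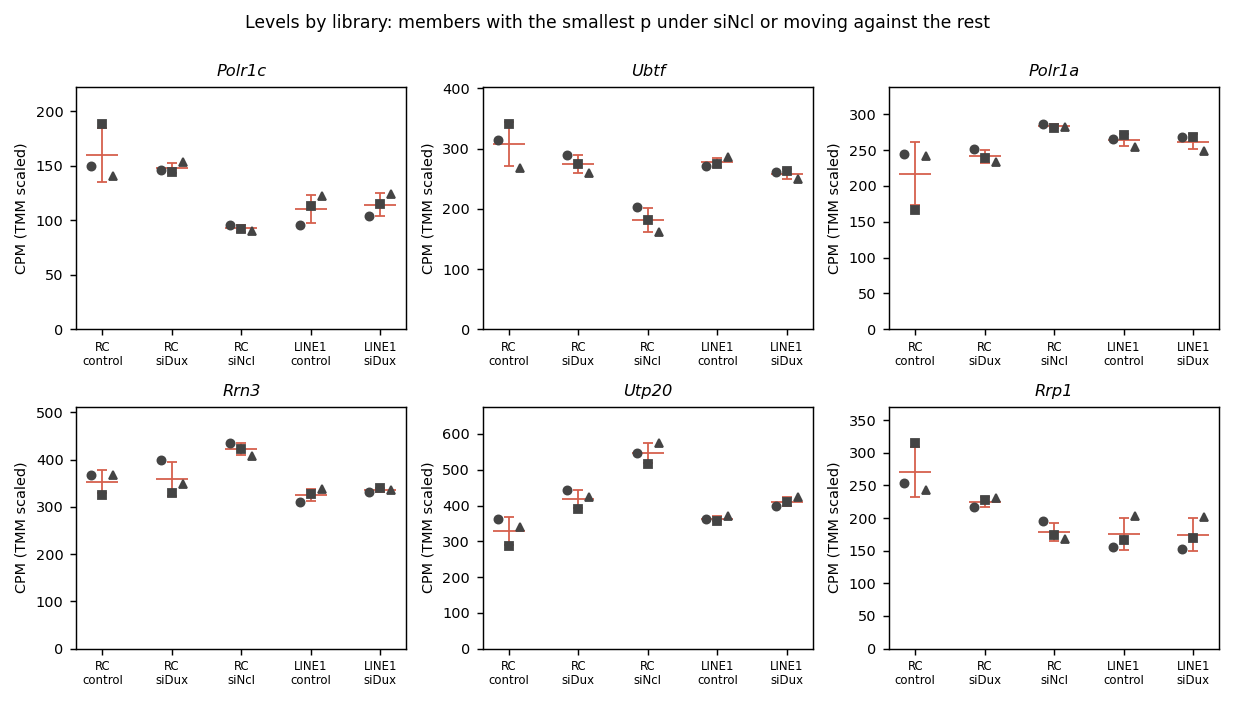
CPM (TMM scaled) in every library of the 5 groups for Polr1c, Ubtf, Polr1a, Rrn3, Utp20 and Rrp1, with red lines for the mean ± SD of 3 libraries and shapes for replicate number. Utp20 is highest in RC siNcl, at 517 to 574 CPM, and Polr1c lowest there, at 89.9 to 96.0 CPM.

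Among the snoRNP proteins Nhp2 and Nop56 fell. Nhp2 was at 255, 225 and 215 CPM with siNcl (log2 change -0.62 ± 0.15 (SE), adjusted p = 0.00415, 1.54-fold lower) and Nop56 at 542, 479 and 461 CPM (log2 change -0.29 ± 0.08 (SE), adjusted p = 0.0161). Both lay below every RC control library. Of the large subunit factors, Rrp1, Bop1, Wdr12 and Nip7 fell. Rrp1 was at 195, 175 and 168 CPM with siNcl (log2 change -0.59 ± 0.12 (SE), adjusted p = 0.00166, 1.51-fold lower), Bop1 at 153, 156 and 132 CPM (log2 change -0.44 ± 0.12 (SE), adjusted p = 0.0127) and Wdr12, a PeBoW subunit, at 133, 125 and 131 CPM (log2 change -0.34 ± 0.10 (SE), adjusted p = 0.0181). Without RC control replicate 2 the large subunit factors that fell numbered 2, as Wdr12 and Nip7 lost their calls, and the small subunit factors 4, as Rrp9 did. The number of members that fell was 6 in a fit on these 2 groups alone, 7 without RC siNcl replicate 3 and 0 under ERCC scaling, where none rose either; the number that rose was 1 in the fit on the compared groups only. Polr1c, Ubtf, Polr1a, Utp20, Nhp2, Utp14a and Rrp1 kept their calls without any 1 library of these groups. This comparison and that of the LINE1 ASO share the RC control libraries, so their values stand side by side and are not correlated.

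The LINE1 ASO and siNcl were also compared with each other without RC control. In LINE1 control against RC siNcl 8 members were lower and 1 higher, against 10.4% and 9.45% of all genes. Ubtf, at 271, 275 and 286 CPM in LINE1 control and 202, 181 and 162 CPM in RC siNcl, was higher (log2 change 0.61 ± 0.10 (SE), adjusted p = 0.000338). Utp20 (log2 change -0.59 ± 0.09 (SE), adjusted p = 0.000218) and Rrn3 (log2 change -0.38 ± 0.08 (SE), adjusted p = 0.00407) were lower in LINE1 control, at 362, 356 and 371 CPM and 311, 327 and 337 CPM. The other six lower members were Polr1e, Rrp12, Nop16, Pes1, Ftsj3 and Rrs1. Polr1e, a polymerase I subunit, was at 29.4, 33.5 and 50.9 CPM in LINE1 control and 57.4, 55.0 and 54.2 CPM in RC siNcl (log2 change -0.55 ± 0.18 (SE), adjusted p = 0.0358), and Nop16, a large subunit factor, at 47.5, 55.4 and 68.5 CPM and 96.1, 84.7 and 78.3 CPM (log2 change -0.59 ± 0.15 (SE), adjusted p = 0.00947). Ftsj3 was at 333, 370.3 and 473 CPM and 563, 519.8 and 499 CPM (log2 change -0.43 ± 0.11 (SE), adjusted p = 0.0104). Rrs1 was at 71.8, 81.8 and 102 CPM and 124, 117 and 98.9 CPM, with an overlap (log2 change -0.41 ± 0.14 (SE), adjusted p = 0.0424), and Rrp12 at 149, 157 and 164 CPM and 190.0, 185 and 174 CPM (log2 change -0.22 ± 0.08 (SE), adjusted p = 0.0491). Ubtf, Utp20 and Rrn3 kept their calls without any 1 library of these groups. The count of lower members was 2 without LINE1 control replicate 1, 3 without replicate 2 and 13 without replicate 3 of that group, and 2, 4 and 5 without RC siNcl replicates 1, 2 and 3. Under ERCC scaling it was 0.

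siDux changed few members. In RC siDux against RC control 3 members fell and 1 rose, against 4.5% and 6.09% of all genes, and the median change was -0.12 (0.21 under ERCC scaling, where that of all genes was 0.31). Utp14a was at 125, 132 and 127 CPM in RC siDux (log2 change -0.43 ± 0.11 (SE), adjusted p = 0.0228), Nop56 at 501, 494 and 484 CPM (log2 change -0.29 ± 0.08 (SE), adjusted p = 0.0385) and Taf1b, an SL1 subunit, at 29.6, 30.6 and 28.4 CPM against 33.9, 41.0 and 35.5 CPM in RC control (log2 change -0.32 ± 0.10 (SE), adjusted p = 0.0448). Utp20 was at 442, 391 and 423 CPM and rose (log2 change 0.35 ± 0.09 (SE), adjusted p = 0.0196). The groups did not overlap in these 4. No call was made in a fit on these 2 groups alone or under ERCC scaling, where Taf1b and Nop56 stood at 0.031 and 0.043; 0 fell without RC siDux replicate 1 or replicate 3, 1 without RC siDux replicate 2 and 1 without RC control replicate 2, and 0 rose without RC siDux replicate 1 or replicate 3.

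siNcl against siDux, both with the RC ASO, gave 4 members lower and 1 higher, against 7.1% and 9.53% of all genes. Polr1c was at 96.0, 91.9 and 89.9 CPM in RC siNcl and 146, 144 and 154 CPM in RC siDux (log2 change -0.68 ± 0.11 (SE), adjusted p = 0.000592), and Ubtf at 202, 181 and 162 CPM and 289, 275 and 259 CPM (log2 change -0.59 ± 0.10 (SE), adjusted p = 0.000473). Nop10, a snoRNP protein, was at 81.4, 81.8 and 74.3 CPM and 111, 102 and 105 CPM (log2 change -0.42 ± 0.13 (SE), adjusted p = 0.0378), and Noc4l at 90.7, 93.5 and 85.2 CPM and 106, 109.5 and 109.7 CPM (log2 change -0.27 ± 0.07 (SE), adjusted p = 0.02). Both were lower with no overlap, and Utp20 was higher (log2 change 0.38 ± 0.09 (SE), adjusted p = 0.00644). Same-numbered libraries deviated together here, and with the replicate number as a block 3 members were higher. The numbers lower and higher were 7 and 4 in a fit on these groups alone and 0 and 0 under ERCC scaling. Nop10 lost its call in each leave-out of 1 library, and 2 members were lower without RC siDux replicate 2, without RC siDux replicate 3 or without RC siNcl replicate 3, with 2 higher without RC siDux replicate 1.

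With siDux in both arms the LINE1 ASO gave no call among the members in the fit on all libraries. In LINE1 siDux against RC siDux 0 members were lower and 0 higher by edgeR, against 0.749% and 2.31% of all genes. An unadjusted p under 0.05 was seen in 12 of the 44 members and in 2941 of the 14696 genes. DESeq2 called 2 lower, as did edgeR on the compared groups only, and 1 was lower with the replicate block. The median change was -0.17 and 38 of 44 members were below 0. Polr1c was at 104, 115 and 124 CPM against 146, 144 and 154 CPM (log2 change -0.37 ± 0.11 (SE), adjusted p = 0.0717), and Rrp1 at 152, 169.8 and 202 CPM against 217, 228 and 230.2 CPM (log2 change -0.36 ± 0.12 (SE), adjusted p = 0.108). No LINE1 siDux library of either gene reached an RC siDux one. 1 member was lower without LINE1 siDux replicate 3. In LINE1 siDux against LINE1 control the members' median change was 0.02, and edgeR and DESeq2 each called 0 lower and 0 higher, against 0.306% and 0.544% of all genes. There 0 members and 1746 of the 14696 genes were at an unadjusted p under 0.05. The interaction of the ASO with siDux was called in 0 of the 44 members in either direction, against 0% of all genes, with 0 members and 491 of the 14696 genes at an unadjusted p under 0.05; edgeR and DESeq2 alike called 0. The members' median interaction was 0.15 (-0.30 under ERCC scaling, where that of all genes was -0.43), and the interaction here is the LINE1 siDux minus LINE1 control change less the RC siDux minus RC control change.

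Transcript length moved with the changes of the members. Lengths were those of the principal transcript in GENCODE on GRCm38, from 924 bases in Imp3 to 9216 bases in Polr1a. In LINE1 control against RC control 9 of the 15 members with the shortest transcripts fell, 6 of the 14 in the middle and 3 of the 15 longest. Of all tested genes in the same length ranges 19.1%, 9.72% and 4.38% fell. Spearman's correlation of length with change was 0.49 over the 44 members and 0.34 over the 13968 tested genes with a length; with siNcl it was 0.394 and 0.246. RC control replicate 2 stood apart here too: the correlation of length with its deviation from the mean of all libraries was -0.547 over the members and -0.465 over all genes, against -0.122 and -0.14 in replicate 1 and -0.082 and -0.013 in replicate 3. Members and genes share the same libraries, and these values are descriptions. With a length curve of each library as an offset in the fit, 16 members fell with the LINE1 ASO and 13 fell and 3 rose with siNcl. Taf1d, Nop56, Nhp2 and Rrs1 lost their LINE1 call, and other members gained one. This offset was chosen after seeing the data, as the last of 3 definitions of length tried; the correlation for the LINE1 ASO was 0.522 with the longest and 0.309 with the median coding transcript. Under the offset the median change with the LINE1 ASO was -0.10 for the snoRNP proteins, -0.17 for the polymerase I factors, -0.29 for the small subunit and -0.38 for the large subunit factors. The part of length in the results was not tested further.

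**Figure D4:**
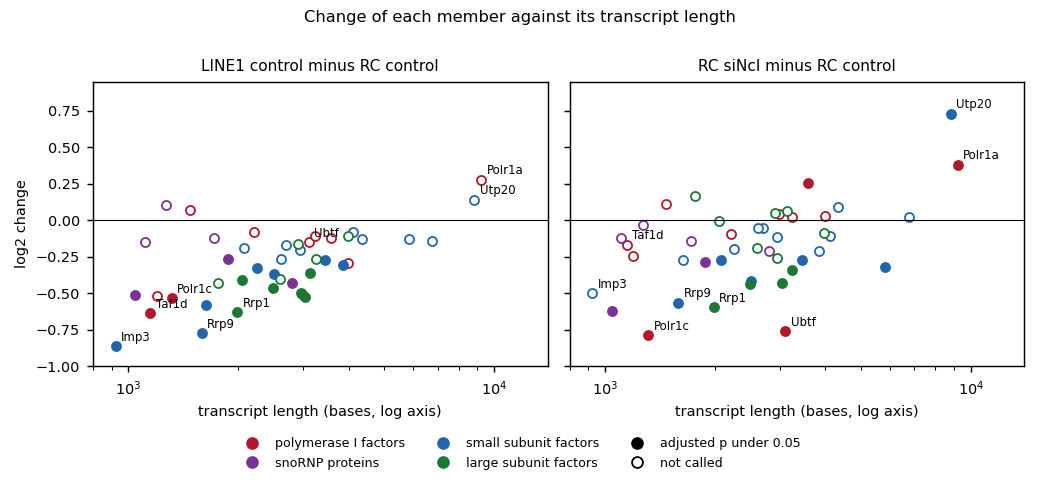
Log2 change of each member against the length of its principal transcript (log axis, bases), for LINE1 control minus RC control and RC siNcl minus RC control, with colour for role and filled points for an adjusted p under 0.05. Some short transcripts, such as Imp3, Rrp9 and Polr1c, lie low in both panels, while Utp20 and Polr1a, the longest, lie above 0 in both. Other members depart from this: Gar1, at 1271 bases, lies at 0.11 in the first panel, and Ubtf, at 3111 bases, lies low with siNcl.

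The listed other genes of the pathway, 98 in number and all tested, were read in the same fit. Their counts under other settings are not given. Over all genes the number lower in LINE1 control against RC control was 1424 in this fit and 703 without RC control replicate 2. It was 32 on the compared groups only and 2 under ERCC scaling. In LINE1 control against RC control 45 of the 98 were lower and 0 higher by edgeR, against 9.69% and 9.35% of all genes, with a median of -0.31. An unadjusted p under 0.05 was seen in 64 of the 98 and in 5078 of the 14696 tested genes. The smallest p-values were those of Ddx27, a large subunit helicase (log2 change -0.41 ± 0.08 (SE), adjusted p = 0.00524), Ruvbl2, an ATPase of snoRNP assembly (log2 change -0.41 ± 0.09 (SE), adjusted p = 0.00829), and Ddx47, a small subunit helicase (log2 change -0.53 ± 0.12 (SE), adjusted p = 0.00895). With siNcl 31 of the 98 were lower and 4 higher, against 15.6% and 16.7% of all genes. Lower were Zfp622, a late large subunit factor (log2 change -0.64 ± 0.11 (SE), adjusted p = 0.000383), Polr2e, shared by the polymerases (log2 change -0.66 ± 0.13 (SE), adjusted p = 0.000864), and Ruvbl1 (log2 change -0.47 ± 0.09 (SE), adjusted p = 0.000996), and higher were Ttf1, the polymerase I terminator (log2 change 0.55 ± 0.11 (SE), adjusted p = 0.00181), Nol11 (log2 change 0.39 ± 0.08 (SE), adjusted p = 0.00181) and Urb1 (log2 change 0.39 ± 0.11 (SE), adjusted p = 0.0108). With siDux 6 were lower, near the 4.5% of all genes, among them Wdr46 (log2 change -0.49 ± 0.08 (SE), adjusted p = 0.00168), Tsr2 (log2 change -0.53 ± 0.13 (SE), adjusted p = 0.0181) and Ltv1 (log2 change -0.37 ± 0.10 (SE), adjusted p = 0.023), and 0 higher by edgeR. An unadjusted p under 0.05 was seen in 30 of the 98 and in 4016 of the 14696 tested genes, a similar share.

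Myc and Mycn, transcription factors known to act on genes of ribosome assembly, were read beside the members. Myc was at 21.0, 29.7 and 47.5 CPM in LINE1 control and 66.3, 39.5 and 62.1 CPM in RC control, with an overlap between the groups (log2 change -0.78 ± 0.25 (SE), adjusted p = 0.0389). Mycn was at 236, 256 and 309 CPM and 276, 309 and 336 CPM, which was not called (log2 change -0.20 ± 0.14 (SE), adjusted p = 0.315). With siNcl neither was called, at log2 change -0.19 ± 0.25 (SE), adjusted p = 0.592 for Myc and log2 change -0.11 ± 0.14 (SE), adjusted p = 0.589 for Mycn. The part of Myc in the members' changes was not tested.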

How the data were processed

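Reads of 15 libraries of mouse ES cells were counted by the authors; the deposited values are raw counts per gene and were used as deposited. The submitters' processing notes name Trim Galore 0.4.0, TopHat2 2.0.9, the build mm9, DESeq2 1.12.3 and R 3.3.0. The counting of multi-mapping reads, and whether strand was used, are not given in the sources used here. The ERCC rows (92) stayed out of library sizes and tests, and a second deposited table, of repeats, was not used. The test was edgeR's quasi-likelihood test (version 4.0.16, R 4.3.3): filterByExpr left 14696 genes, with TMM scaling and one term per group (10 residual degrees of freedom), and p-values were Benjamini-Hochberg adjusted over all tested genes at 0.05. The SE is the absolute log2 change over the square root of F. The fit was tested on simulated data.

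Comparisons (8) were made between groups. The members, roles and lists were chosen with earlier results of these data known. Named in full were, per role and comparison, up to 3 called members with the smallest p, and any that moved against the majority. Overlap between groups was read mostly in such genes, so a lack of overlap adds no support to their calls. The share of all genes without an overlap was not computed. Alternatives were RLE and ERCC scaling, no filter, a 5 CPM filter, the replicate block, the compared groups alone, each library left out, and DESeq2 1.42.0. A transcript length offset was added after seeing the data, with 3 definitions of length tried in turn: the longest coding transcript, the median coding transcript, and the principal (APPRIS) transcript. The last is the one reported, since the first gave over-long and the second fragment lengths for some members. Whether the principal lengths fit each member, such as 5836 bases for Imp4 and 3036 bases for Nip7, was not tested. The calls under the earlier definitions had been seen by then. Same-numbered libraries correlated over 0.1 in all 3 pairs for RC siDux with RC control, LINE1 siDux with LINE1 control and RC siNcl with RC siDux only. For LINE1 control with RC control the correlations were 0.0901, 0.165 and 0.229, and each number matched its own number best. With the replicate block 22 members and 1957 of all genes were lower there, against 18 and 1424 in the main fit, which ignores the number. The labels do not say what a number shares.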

Additional observations from a re-analysis of the deposited data

How the results depend on the processing

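Scaling to the ERCC spike-ins moved the median of all genes to 0.22 in LINE1 control minus RC control and ended each member call. The members' median relative to all genes stayed at -0.29. The spike-ins came to 0.273% to 0.652% of gene counts and differed within groups (0.303%, 0.647% and 0.531% in RC control). In each group replicate 1 had the lowest share. Under this scaling 2 of all genes were lower and 278 higher in LINE1 control minus RC control, so the lost calls are not particular to the members. The members' median turned sign under it in RC siDux minus RC control (0.21, all genes 0.31), LINE1 control minus RC siNcl (0.02, all genes 0.16), LINE1 siDux minus LINE1 control (-0.10, all genes -0.12) and the interaction (-0.30, all genes -0.43). It gave 0 lower and 0 higher members in each comparison, and Taf1b and Nop56 in RC siDux minus RC control turned to 0.031 and 0.043. In a fit on the compared groups only, the members lower were 0 with the LINE1 ASO, 6 with siNcl, 0 with siDux, 2 in LINE1 siDux minus RC siDux and 7 in RC siNcl minus RC siDux, and the members higher were 1 with siNcl, 0 with siDux and 4 in RC siNcl minus RC siDux. The cause was not tested.

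Leaving out 1 library gave between 2 and 24 members lower in LINE1 control minus RC control (0 to 1 higher), 7 to 17 in RC siNcl minus RC control (2 to 3 higher), 0 to 3 in RC siDux minus RC control (0 to 1 higher), 0 to 1 in LINE1 siDux minus RC siDux, 2 to 3 in RC siNcl minus RC siDux (1 to 2 higher) and 2 to 13 in LINE1 control minus RC siNcl (1 to 2 higher). With the replicate block, 1 member was lower in LINE1 siDux minus RC siDux and 3 higher in RC siNcl minus RC siDux; the other counts over all 44 members stayed within 1.5 times under the block, while polymerase I factors lower with the LINE1 ASO went from 2 to 4. The 5 CPM filter gave 3 higher in RC siNcl minus RC siDux, and DESeq2 2 higher there and 2 lower in LINE1 siDux minus RC siDux. RLE scaling and no filter moved no count over all 44 members by over 1.5 times, while no filter gave 4 polymerase I factors lower with the LINE1 ASO.

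The length offset was run under 3 definitions, all chosen after seeing the data. With the principal transcript 0 were higher with siDux, 1 lower in LINE1 siDux minus RC siDux and 2 higher in LINE1 control minus RC siNcl. With the longest coding transcript those were 0, 1 and 2, and 1 was higher with the LINE1 ASO. With the median coding transcript 1 was higher with siNcl, where Polr1a and Rrn3 lost their calls, 1 lower with siDux, 1 lower in LINE1 siDux minus RC siDux and 2 higher in LINE1 control minus RC siNcl. The correlation of length with change over the members with the LINE1 ASO was 0.522, 0.309 and 0.49 for the longest, median and principal definition, so its size depends on the definition. The snoRNP proteins had the highest median of the roles there under each definition, with -0.21, -0.09 and -0.10, against -0.25, -0.22 and -0.17 for the polymerase I factors. Depth was 9.55 M to 27.6 M counts, with 3 libraries a group, and it went with the ASO. It was 17.4 M to 21.0 M in LINE1 control and 22.7 M to 27.6 M in LINE1 siDux. In RC control it was 10.1 M to 17.4 M, in RC siDux 11.5 M to 15.7 M and in RC siNcl 9.55 M to 14.9 M. The part of depth in the comparisons of the LINE1 ASO with RC groups was not tested, and the design does not separate them.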

Other observations

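The genes with symbols Rpl or Rps that encode cytosolic ribosomal proteins stood beside the members in the same libraries. In LINE1 control against RC control 63 of 82 were lower and 0 higher by edgeR (all genes 9.69% and 9.35%), with a median change of -0.49. There 71 of the 82 and 5078 of the 14696 tested genes were at an unadjusted p under 0.05. Counts of the 82 under other settings are not given. Over all genes the number lower there was 1424 in this fit, 32 on the compared groups only and 2 under ERCC scaling. It was 113 without LINE1 control replicate 1 and 239 without LINE1 control replicate 2. With siNcl 26 of the 82 were lower (all genes 15.6%), with a median of -0.33, and with siDux 3 were (all genes 4.5%), with a median of -0.26. In LINE1 siDux against LINE1 control 0 of the 82 were called in either direction by edgeR, with a median of -0.04. There 0 of the 82 and 1746 of the 14696 tested genes were at an unadjusted p under 0.05. Of the 13 genes of the Myc network, 3 were lower and 2 higher in LINE1 control against RC control.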
